A study of Mus musculus with 18 samples.

Results

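The adhesion receptor Adgrg6 (also called Gpr126), its ligand Prnp (the prion protein), the secreted ligands Lgi1, Lgi2, Lgi3 and Lgi4 and their receptors Adam11, Adam22 and Adam23 were followed in mouse dorsal root ganglion explants as these made myelin. The 9 genes were taken by name, through the transcript accession that the array gives for each probe. Of 22854 features tested (genes, or probes with no gene symbol), 9 are these genes, read by 13 probes. All 13 probes were well above background on all 18 arrays, so all 9 genes passed the filter on dim probes.

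Adgrg6 is a G protein-coupled receptor on Schwann cells that raises cyclic AMP through a stimulatory G protein, and mice, fish and humans that lack it cannot make normal peripheral myelin. Its known ligands are collagen IV and laminin-211 of the basal lamina and the flexible tail of the prion protein, shed from axons. In a second route, Schwann cells secrete Lgi4, which acts through Adam22 on sensory neurons and their axons, and mice without either protein myelinate late and poorly. Lgi1 and the related Lgi2 and Lgi3 are best known as secreted proteins of neurons or glia in the brain, where Lgi1 ties Adam22 and Adam23 to synaptic scaffolds and potassium channels. Adam11, Adam22 and Adam23 belong to the ADAM family but lack its protease activity.

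Explants came from dorsal root ganglia of C57BL/6J embryos at E13.5, grown on matrigel for 12 days in growth medium and then moved to myelination medium. RNA was taken on day 0 (before that medium was added), on day 10 (early myelination) and on day 22, when mature sheaths were plentiful; the labels mark every culture as control. Biological replicates are batches of ganglia, each from its own embryo pool; 3 were measured per day, each on 2 technical arrays, or 6 one-colour Agilent arrays a day. With no explants kept out of the medium, its effect and that of age in culture cannot be told apart.

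A level is the log2 of a probe's intensity minus the log2 of its array's 75th percentile. Levels of different probes were not read as relative amounts of RNA. They enter together in the choice of a gene's brightest probe and in marker sums and means. They also do so in differences from marker means, which are read between days. A change is the difference of day means over 3 batches in a limma fit to all features, ± its standard error, and adjusted p-values are Benjamini-Hochberg values over all 22854 features from that fit. One limit touches each of them. The authors deposited a value table beside the array files, and 12 of its 18 columns hold the array filed under another sample of the same day, so an array's batch depends on the source, while its day does not. Pairs of adjusted p are therefore given first for the file batches (as the array files place the arrays) and second for the table batches (as the value table does), and "rose" or "fell" is used only where both were under 0.05.

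Between 54.8% and 61.5% of the probe spots on an array were well above background. The explants held their labelled tissue: Schwann cell markers summed to 462 to 618 on day 0, 479 to 614 on day 10 and 361 to 610 on day 22 (linear units of the 75th percentile, 7 of 7 tested), and neuron markers to 343 to 641, 471 to 719 and 324 to 603 (12 of 12 tested). Of 8 macrophage markers, 8 rose between day 0 and day 22, with medians of the sum of 15.7 on day 0, 38.5 on day 10 and 121 on day 22. In bulk RNA fewer cells of a type and less RNA per cell cannot be told apart.

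The promoters of Adgrg6, Lgi2 and Prnp are shown because these genes changed with both groupings and have an entry in the promoter table, as 6 of the 9 do. These are the 250 bases before the start of each gene from RefSeq, build GRCm38.p6, read 5′ to 3′ on the gene's strand, with capitals for 3 motifs: TGACG (the cyclic AMP response element's core), CCAAT (the CCAAT box) and GGGCGG (the GC box). Matches on the other strand are printed as CGTCA for the first motif, as ATTGG for the second and as CCGCCC for the GC box.
Adgrg6 promoter, chr10:14545037-14545286, minus strand: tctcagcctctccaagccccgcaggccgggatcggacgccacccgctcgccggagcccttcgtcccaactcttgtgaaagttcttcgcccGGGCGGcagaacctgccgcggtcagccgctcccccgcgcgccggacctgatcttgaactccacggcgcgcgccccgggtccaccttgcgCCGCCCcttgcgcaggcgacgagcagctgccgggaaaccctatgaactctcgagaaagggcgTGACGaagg
Lgi2 promoter, chr5:52566307-52566556, minus strand: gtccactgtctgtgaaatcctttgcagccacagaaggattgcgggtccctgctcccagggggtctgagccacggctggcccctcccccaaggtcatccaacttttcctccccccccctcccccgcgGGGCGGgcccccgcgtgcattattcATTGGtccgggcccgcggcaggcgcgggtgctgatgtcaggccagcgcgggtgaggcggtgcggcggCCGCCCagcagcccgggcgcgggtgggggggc
Prnp promoter, chr2:131909678-131909927, plus strand: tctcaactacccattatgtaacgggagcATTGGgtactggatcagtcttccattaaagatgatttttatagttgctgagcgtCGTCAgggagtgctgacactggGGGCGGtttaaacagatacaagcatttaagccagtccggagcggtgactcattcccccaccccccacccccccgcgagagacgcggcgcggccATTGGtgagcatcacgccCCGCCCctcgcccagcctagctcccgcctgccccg
The Adgrg6 stretch holds 1 TGACG whose first base lies 9 bases before the start, and GC boxes at 160 and 71 bases. The Lgi2 stretch has 1 CCAAT box at 99 bases and GC boxes at 124 and 32, and no TGACG. In the Prnp stretch there are 1 TGACG at 168 bases, CCAAT boxes at 222 and 53 and GC boxes at 146 and 35. Over 32536 different upstream stretches of the same length, counting both strands, 17.9% hold TGACG, 33.8% CCAAT and 33.0% GGGCGG. The full cyclic AMP response element, TGACGTCA, is in 1.6% of all stretches, and ACAAAG, a Sox protein motif, is in 16.5%. Neither is in these 3 stretches, whose GC contents were 69.6% for Adgrg6, 72.4% for Lgi2 and 58.8% for Prnp, against a median of 52.4%.

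Adgrg6 fell within the first 10 days in myelination medium and lay below its day 0 level on day 22 as well. On day 0 its lowest, median and highest arrays read 2.71, 2.77 and 2.93, on day 10 they read 2.06, 2.26 and 2.37, and on day 22 they read 1.46, 2.11 and 2.30. Every array of days 10 and 22 lay below every array of day 0, while days 10 and 22 overlapped. The change was -0.57 ± 0.14 for day 10 against day 0 (adjusted p = 0.0170 and 0.0312 in the limma fits). It passed the threshold in 6 of the 9 fits that leave out 1 batch of a day; without batch 1 of day 0, batch 1 of day 10 or batch 2 of day 10 the adjusted p was 0.050, 0.0547 and 0.0572.

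Across the whole 22 days the fall of Adgrg6 was -0.79 ± 0.14, or 1.73-fold lower on day 22 than on day 0 (95% interval -1.11 to -0.47; adjusted p = 0.00227 and 0.00370). It was -1.11 among the arrays of slide 1 alone (adjusted p = 0.0240) and -0.68 among those of slide 2 (adjusted p = 0.0374). The only day 22 arrays of slide 1 are the 2 of file batch 1 (table batches 1 and 2), which had the lowest Adgrg6 levels of that day. Day 22 differed from day 10 by -0.22 ± 0.14 (adjusted p = 0.353 and 0.426), with an interval of -0.54 to 0.09.

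The Schwann cell markers give a yardstick for Adgrg6. Its level minus the mean log2 level of the 7 Schwann cell markers was -1.84 ± 0.02 on day 0, -2.40 ± 0.07 on day 10 and -2.33 ± 0.06 on day 22 (SD, n = 3 file batches). By table batches the SDs of this difference were 0.12, 0.09 and 0.06. On every array of days 10 and 22 this difference lay below its day 0 range of -1.99 to -1.70, so Adgrg6 was lower relative to the markers too. Among the day 22 arrays the lowest Adgrg6 levels, 1.46 and 1.85 in batch 1, came from the arrays with the lowest marker means, 3.72 and 4.23. The marker list itself moved: Erbb3, a neuregulin receptor, fell by 0.93 ± 0.17 at day 22 against day 0 and Ngfr, the low-affinity neurotrophin receptor, fell by 0.92 ± 0.16, while the other 5 did not pass with both groupings.

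**Figure D1:**
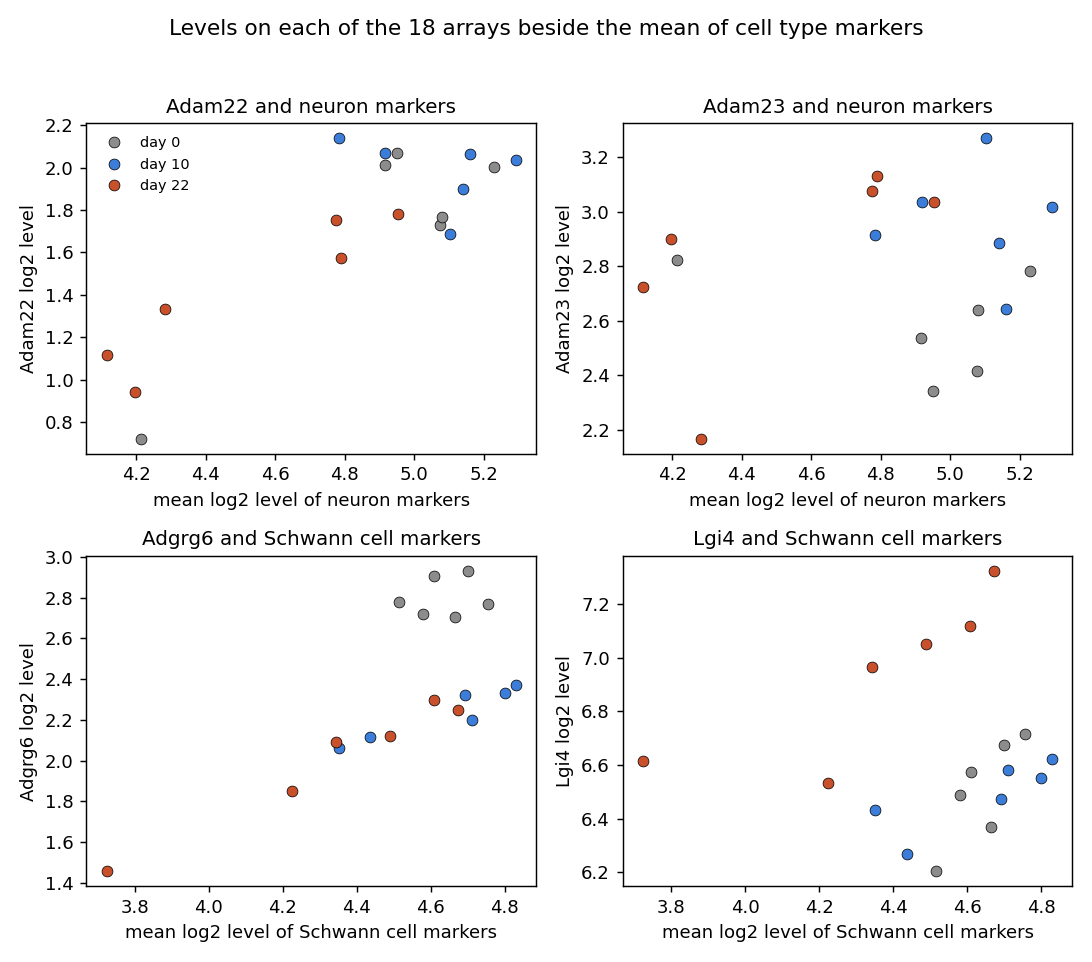
Log2 level of Adam22, Adam23, Adgrg6 and Lgi4 (vertical axes) on each of the 18 arrays against the mean log2 level of neuron or Schwann cell markers on the same array (horizontal axes), coloured by day 0, 10 or 22. Adam22 is lowest, at 0.72 to 1.34, on the 4 arrays with the lowest neuron marker means, and the day 0 arrays of Adgrg6 lie above those of days 10 and 22 at like marker means.

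Prnp, the prion protein gene, rose by day 22. Its lowest, median and highest arrays were 6.40, 6.55 and 6.84 on day 0, 6.62, 6.72 and 7.10 on day 10, and 6.59, 7.14 and 7.39 on day 22. On day 22, 5 of 6 arrays exceeded all day 0 arrays, and the sixth, batch 1 array 2 at 6.59, lay within the day 0 range. The change was 0.51 ± 0.11 for day 22 against day 0, 1.43-fold (adjusted p = 0.00687 and 0.0283 in the limma fits). It was 0.23 on slide 1 alone, whose only day 22 arrays are those of batch 1, and 0.62 on slide 2 alone (adjusted p = 0.501 and 0.0655). The steps differed by 0.22 ± 0.11 for day 10 against day 0 (adjusted p = 0.177 and 0.326) and by 0.29 ± 0.11 for day 22 against day 10 (adjusted p = 0.148 and 0.333).

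Lgi2 had the largest change of the 9 genes. This secreted leucine-rich repeat protein is best known from the brain, where a truncated form causes epilepsy in dogs. Its day 0 arrays ran from -2.35 through a median of -1.52 to -0.95, its day 10 arrays from -0.70 through -0.16 to 0.15, and its day 22 arrays from 0.02 through 0.67 to 1.01. All arrays of days 10 and 22 lay above all arrays of day 0, and on day 22 only batch 2 array 2, at 0.02, lay within the range of day 10. Lgi2 rose by 1.45 ± 0.19 at day 10 against day 0 (adjusted p = 0.00157 and 0.00416 in the limma fits). At day 22 against day 0 it rose by 2.27 ± 0.19, a 4.82-fold change (95% interval 1.83 to 2.71, adjusted p = 7.07e-05 and 0.000180). Slide 1 alone, with only batch 1 on day 22, gave 2.63, and slide 2 alone gave 2.18.

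The second step of Lgi2, 0.82 ± 0.19 for day 22 against day 10, passed with the file batches (adjusted p = 0.0348), while the table batches gave 0.0676 and the file batches with the batch as a block 0.060. It was also lost in 5 of the 9 fits without 1 batch (without batch 3 of day 0, any batch of day 10, or batch 1 of day 22), with adjusted p up to 0.102. Macrophage markers were higher on the days when Lgi2 was, with a mean log2 level of -1.58 to 0.28 on day 0, 0.40 to 1.94 on day 10 and 1.62 to 4.08 on day 22. With both groupings, 1 of 8 was higher for day 10 against day 0, 0 for day 22 against day 10 and 8 for day 22 against day 0. Within day 22 the array with the highest Lgi2 (1.01) had the highest macrophage mean, 4.08, and that with the second highest (0.86) had the third highest, 3.36. The array with the lowest Lgi2 (0.02) had the second highest macrophage mean, 3.76, and the part of these cells in the Lgi2 result was not tested. Of 5 melanocyte markers 3 were tested, and their sums had medians of 3.97 on day 0, 65.4 on day 10 and 53.1 on day 22, with Dct and Mlana not well above background on all arrays of any day. The mean log2 level of 5 fibroblast markers also had higher medians on the later days, 4.47, 4.93 and 5.17. Of these 5 markers, 1 was higher and 2 were lower at day 22 against day 0 with both groupings. The part of melanocytes and fibroblasts in the Lgi2 result was not tested.

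Lgi4, the Schwann cell ligand, was bright throughout and higher in most arrays of day 22. It read 6.20, 6.53 and 6.71 on its lowest, median and highest day 0 arrays, 6.27, 6.51 and 6.62 on those of day 10 and 6.53, 7.01 and 7.32 on those of day 22. The 4 arrays of file batches 2 and 3 on day 22 exceeded every earlier array, and the arrays of file batch 1, at 6.62 and 6.53, lay among them. Those of file batch 1 share slide 1, and the value table places them in batches 1 and 2. Day 22 differed from day 0 by 0.43 ± 0.15, 1.35-fold, with adjusted p = 0.0473 and 0.0387 in the limma fits. This call was lost in 8 of the 9 fits without 1 batch of a day (adjusted p up to 0.137) and held only in the one without batch 1 of day 22, where the change was 0.61 (0.00222). It was 0.10 on slide 1 alone, whose only day 22 arrays are those of batch 1, and 0.40 on slide 2 alone (adjusted p = 0.740 and 0.104).

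Set beside the 7 Schwann cell markers, Lgi4 separated day 22 from both earlier days, a result that belongs to this marker list. Its level minus the marker mean was 1.87 ± 0.07 on day 0, 1.85 ± 0.06 on day 10 and 2.59 ± 0.02 on day 22 (SD, n = 3 batches). By table batches the SDs were 0.06, 0.09 and 0.16. Over arrays the difference ran from 1.69 to 1.97 on day 0, 1.75 to 2.08 on day 10 and 2.31 to 2.89 on day 22, with no overlap between day 22 and the others. The marker mean was itself lower on day 22, with a median of 4.42 against 4.64 on day 0 and 4.70 on day 10. The mean of the myelinating Schwann cell markers was instead higher on day 22 than on day 0, with medians of 3.95, 5.43 and 5.25 on the 3 days. The batch 1 arrays of day 22, where Lgi4 itself was not raised, are those with the lowest Schwann cell marker means of all 18. Day 10 against day 0 gave -0.02 ± 0.15 for Lgi4 (interval -0.36 to 0.33; adjusted p = 0.95 and 0.948), and day 22 against day 10 gave 0.45 ± 0.15 (adjusted p = 0.102 and 0.133).

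Lgi3, which in the brain is tied to potassium channels of myelinated axons, had its highest mean on day 10. Its lowest, median and highest arrays were -1.64, -1.24 and -0.22 on day 0, -1.03, -0.14 and 0.21 on day 10 and -1.91, -1.39 and -0.79 on day 22, and each pair of days overlapped. Day 10 differed from day 0 by 0.76 ± 0.31 (adjusted p = 0.0967 and 0.191) and day 22 from day 10 by -1.01 ± 0.31 (adjusted p = 0.0759 and 0.197). With the batch as a block in the limma fit both passed with the file batches (0.040 and 0.0349) and neither with the table batches (0.0673 and 0.069). Lgi1, the gene of a familial lateral temporal epilepsy, showed no difference between days larger than its spread. Its brighter probe read -1.49, -1.26 and -0.58 on day 0, -1.54, -0.84 and -0.45 on day 10 and -1.37, -0.97 and -0.66 on day 22. The days overlapped throughout, and the changes were 0.18, -0.04 and 0.14 (standard error 0.17 each; adjusted p = 0.46, 0.907 and 0.534). The dimmer Lgi1 probe gave 0.09, -0.27 and -0.18, and none passed.

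**Figure D2:**
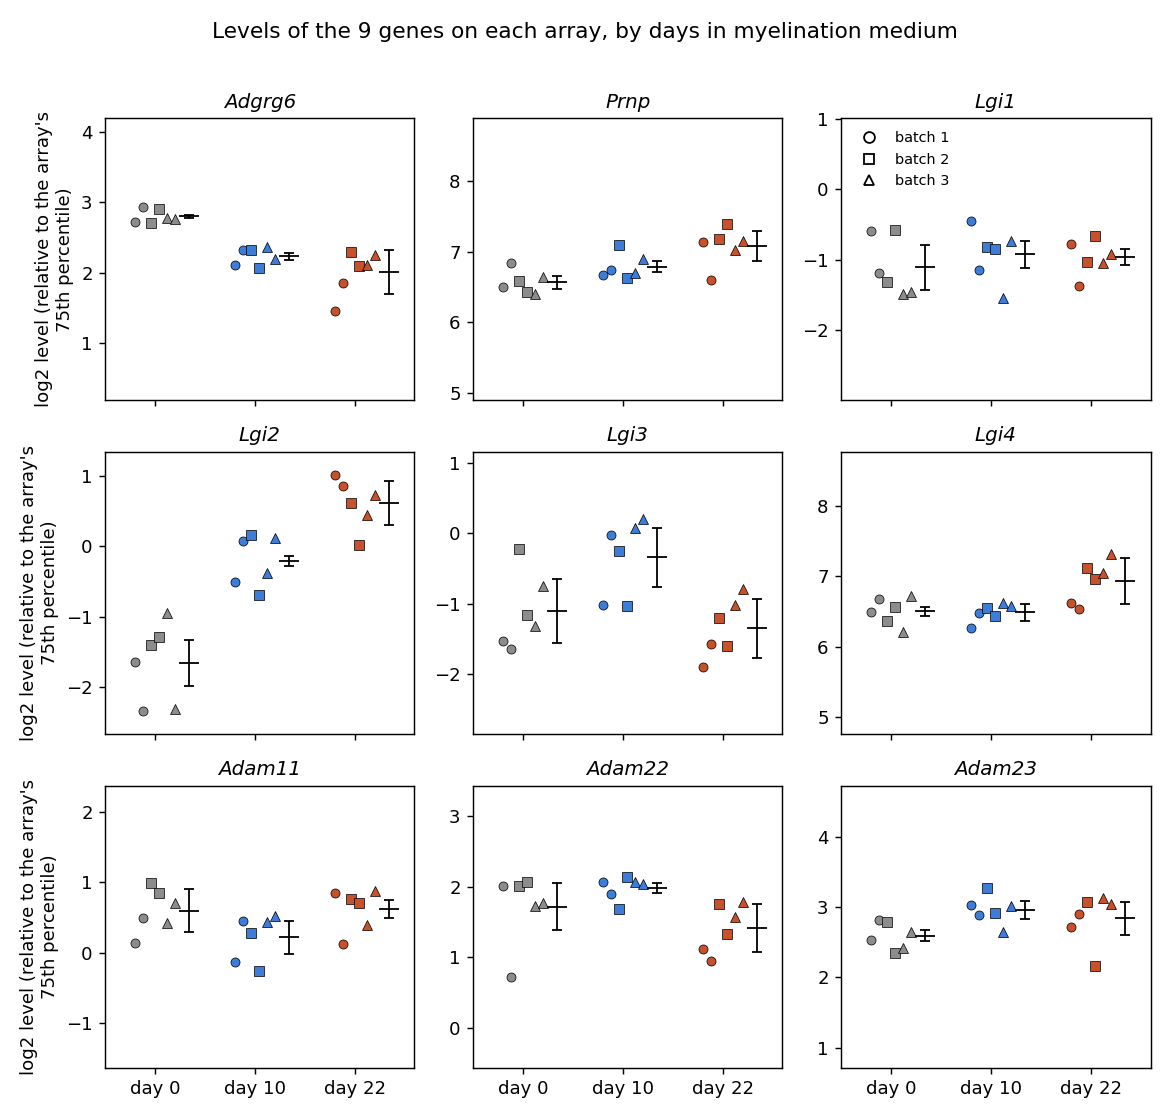
Log2 level of each of the 9 genes (vertical axes, each spanning 4 log2 units) on days 0, 10 and 22 of myelination medium; points are the 18 arrays, shaped by file batch, and the bars are the mean ± SD of 3 batch values. Day 0 stands apart from the later days in Adgrg6 and Lgi2, and within day 22 batch 1 has the lowest values of Adgrg6, Lgi4 and Adam22.

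Among the receptors, Adam22 was lowest on the arrays where the neuron markers were lowest. Its brighter probe read 0.72, 1.89 and 2.07 on the lowest, median and highest arrays of day 0, 1.69, 2.05 and 2.14 on day 10 and 0.94, 1.46 and 1.78 on day 22. The lowest day 0 value, from batch 1 array 2, stood below the other 5 arrays of that day, which read 1.73 to 2.07. That array also had the lowest neuron marker mean of day 0, 4.21 against 4.92 to 5.23 on the others. On day 22 the 3 arrays with neuron marker means of 4.12 to 4.28 read 0.94 to 1.34 for Adam22, and the 3 with 4.78 to 4.95 read 1.57 to 1.78. The order did not hold on day 10, where the array with the lowest neuron marker mean, 4.78, had the highest Adam22, 2.14, nor among the other 5 arrays of day 0.

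Taken relative to the mean of the 12 neuron markers, Adam22 was -3.19 ± 0.14 on day 0, -3.08 ± 0.08 on day 10 and -3.10 ± 0.11 on day 22 (SD, n = 3 file batches), which are day differences within the spread. By table batches the SDs for Adam22 were 0.27, 0.30 and 0.13. The neuron markers did not move as one: Rbfox3 averaged 3.80 on day 0 and 2.67 on day 22, and Uchl1 4.51 and 4.90. Of the 12, 0 were higher and 2 lower at day 22 against day 0 with both groupings, so the result belongs to this marker list. In the level of Adam22 itself, day 22 differed from day 10 by -0.56 ± 0.20 (adjusted p = 0.120 and 0.243 in the limma fits) and from day 0 by -0.30 ± 0.20 (adjusted p = 0.266 and 0.344). Without batch 1 array 2 of day 0, a choice made after seeing the data, the change for day 22 against day 0 was -0.52 (adjusted p = 0.0415). A second Adam22 probe, designed on another transcript, was dim (-4.16 to -0.86 on day 0) and gave -0.74 ± 0.37 for day 22 against day 0 (adjusted p = 0.139 and 0.202).

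Adam23, a receptor for Lgi1 on axons and synapses, read higher on most arrays of days 10 and 22 than on day 0. Its brighter probe read 2.34, 2.59 and 2.82 on day 0, 2.64, 2.97 and 3.27 on day 10 and 2.17, 2.97 and 3.13 on day 22, with overlap between all days. The change for day 10 against day 0 was 0.37 ± 0.13 (adjusted p = 0.0567 and 0.198 in the limma fits), and its second probe gave 0.15 ± 0.17. Relative to the neuron markers Adam23 was -2.32 ± 0.38 on day 0, -2.11 ± 0.27 on day 10 and -1.68 ± 0.30 on day 22 (SD, n = 3 file batches). By table batches its SDs were 0.26, 0.26 and 0.18. These differences too belong to the neuron marker list, whose members moved differently. Adam11, which in cerebellar neurons helps to place potassium channels at nerve endings, read 0.14, 0.60 and 0.99 on day 0, -0.26, 0.36 and 0.52 on day 10 and 0.12, 0.74 and 0.88 on day 22. All days overlapped, the changes were -0.38 ± 0.17 for day 10 against day 0 and 0.40 ± 0.17 for day 22 against day 10, and no adjusted p passed (0.134 and 0.182, or 0.274 and 0.382 by table batches). Its second probe did not share the dip on day 10, with changes of 0.06 and 0.07.

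The counts of called genes are small numbers beside a high background. For day 22 against day 0, 3 of the 9 were higher with both groupings (Lgi2, Lgi4 and Prnp), beside 12.6% of all features, and 1 was lower (Adgrg6), beside 18.6%. The file batches alone gave the same 4 calls, and called 44.4% of all features. For day 10 against day 0, 1 was higher (Lgi2) and 1 lower (Adgrg6) with both groupings, beside 5.75% and 7.72% of all features, and the file batches alone gave the same 2 calls and called 29.2%. For day 22 against day 10, 0 were higher or lower with both groupings, beside 0.49% higher and 1.45% lower of all features; the file batches alone called Lgi2 and 9.63% of features. Adgrg6 and Lgi2 were the genes whose arrays of the compared days did not overlap, for both comparisons with day 0, and this held for 17.1% of features for day 10 and 22.9% for day 22. For day 22 against day 10 it held for none of the 9 and for 8.63% of features. The median change of the 9 was 0.22 for day 10 against day 0, -0.04 for day 22 against day 10 and 0.14 for day 22 against day 0, beside -0.06, -0.02 and -0.08 over all features.

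**Figure D3:**
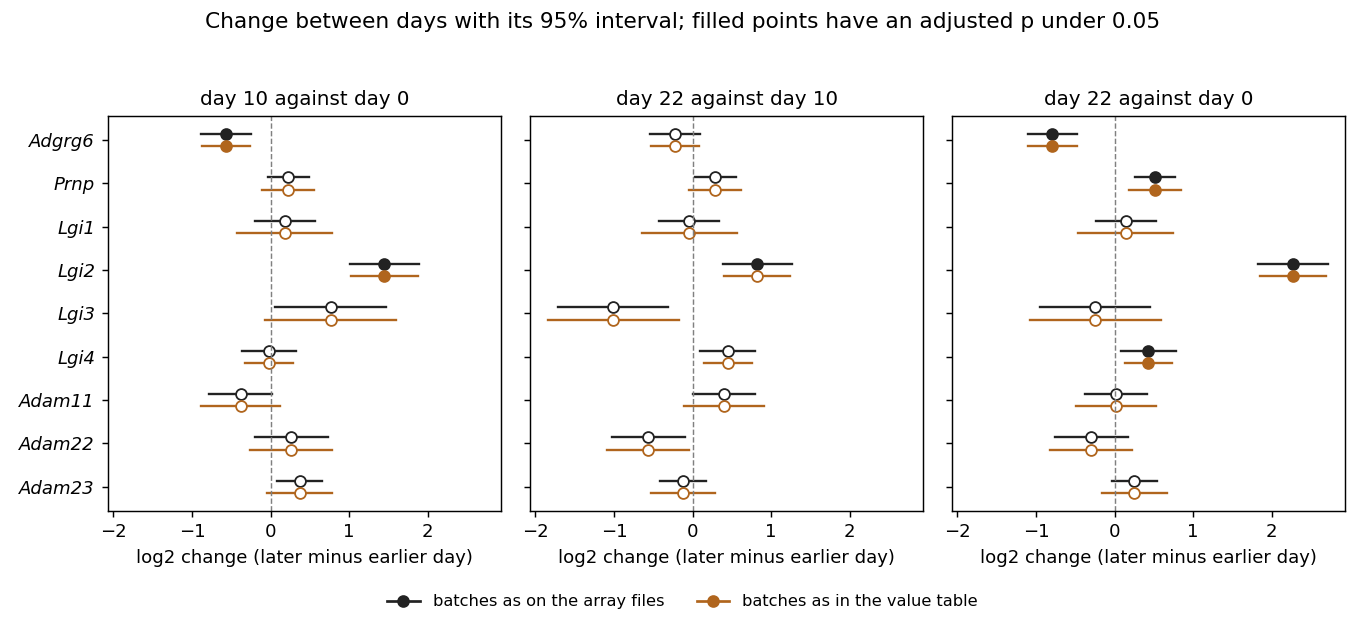
Log2 change of the 9 genes between days (horizontal axis, later minus earlier day) with its 95% interval, for the file batches (black) and the table batches (brown); filled points have an adjusted p under 0.05. Adgrg6 lies below 0 and Lgi2 above 0 in both comparisons with day 0, while Lgi1 and Adam11 include 0 in nearly all intervals.

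Most tested chains of the matrix ligands of Adgrg6 fell. Of 9 collagen IV and laminin-211 chains 8 were tested, and 5 fell and 1 rose in both comparisons with day 0, where 7.72% of all features fell and 5.75% rose at day 10 and 18.6% fell and 12.6% rose at day 22. The median change of the 8 at day 22 against day 0 was -0.80, beside -0.08 over all features. At day 22 against day 0 the laminin chains Lamc1 (-1.54 ± 0.10), Lama2 (-1.52 ± 0.10) and Lamb1 (-0.96 ± 0.09) fell most, with all their arrays apart, and Col4a1 and Col4a2 were the other 2. Col4a4 was the one that rose, by 0.84 ± 0.15, but with an adjusted p of 0.0528 once the table batches were also a block. Lama2 averaged 4.59 on day 22, against 5.43 on day 10 (-0.84 ± 0.10, adjusted p = 0.00332 and 0.0117).

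Downstream of Adgrg6, genes of cyclic AMP signalling included some that rose and some that fell. Of 28 tested, 3 rose and 8 fell at day 22 against day 0 with both groupings (5 and 12 with the file batches alone), and the median change was -0.17. Over all features 12.6% rose and 18.6% fell with both groupings, so the share that rose, 3 of 28, is near the background. The adenylyl cyclases, which make cyclic AMP, were split: Adcy3 rose by 1.57 ± 0.25 and Adcy2 by 0.97 ± 0.11, while Adcy5 fell by 0.82 ± 0.10. Adcy8 was lower by 1.64 ± 0.27 but well above background on only 3 of 6 arrays of day 22. Crem, a transcriptional modulator of cyclic AMP response elements, rose by 0.68 ± 0.10, and Crtc1, a coactivator of CREB proteins, fell by 0.46 ± 0.11. Day 10 against day 0 gave 2 higher (Adcy2 and Crem) and 2 lower (Crtc3 and Atf1).

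The transcription factors that this pathway is known to switch on did not pass with both groupings. Pou3f1, a Schwann cell factor of the premyelinating stage, differed by 1.12 ± 0.32 for day 10 against day 0 (adjusted p = 0.0304, and 0.208 by table batches) and by -1.28 ± 0.32 for day 22 against day 10 (0.0405 and 0.270). Egr2, the master regulator of peripheral myelin, differed by 0.44 ± 0.40 for day 10 against day 0 (adjusted p = 0.452 by file batches). For day 22 against day 0 it differed by -0.29 ± 0.40 (adjusted p = 0.597 by file batches). Gnas, which encodes the stimulatory G protein, differed by -0.18 ± 0.06 for day 22 against day 0 (adjusted p = 0.0474, and 0.185 by table batches).

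Partners of Adam22 and the Lgi proteins mostly did not pass: of 15 tested, 2 rose and 2 fell at day 22 against day 0 with both groupings, and the median change was -0.25. These shares are near or below those of all features, 12.6% and 18.6%. Kcnab1, a subunit of Kv1 potassium channels, rose by 1.65 ± 0.31 at day 10 against day 0 (adjusted p = 0.00646 and 0.0220) and by the same at day 22 against day 0. Dlg2, a scaffold of the PSD95 family, rose by 0.88 ± 0.19 and 0.58 ± 0.19 in these comparisons. The Nogo receptor Rtn4r fell by 1.53 ± 0.29 at day 22 against day 0, and the Kv1 channel Kcna6 fell by 0.43 ± 0.15.

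Among relatives of the receptors, other membrane-anchored Adam genes gave 2 higher and 2 lower of 8 tested at day 22 against day 0, with a median change of 0.10, where 12.6% of all features were higher and 18.6% lower. Adam8, a protease of myeloid cells, rose by 5.09 ± 0.40 and Adam15 by 0.80 ± 0.10, while Adam19 fell by 1.34 ± 0.08 and Adam10 by 0.45 ± 0.14. Of 17 other adhesion G protein-coupled receptors, 1 rose and 7 fell with both groupings, and their median change was -0.58, beside the same shares of all features. The one that rose, Adgre1 (3.34 ± 0.42), is itself one of the macrophage markers and so is part of the macrophage sums given above. The part of macrophages in the rise of Adam8 was not tested. The largest falls were those of Adgrb3 (-2.11 ± 0.19), Celsr1 (-1.70 ± 0.17) and Adgra3 (-0.98 ± 0.08). Of the prion protein's relatives, Sprn, the shadow of prion protein, fell by 1.61 ± 0.19 at day 22 against day 0 (adjusted p = 0.000326 and 0.00114), and Prnd did not pass.

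**Figure D4:**
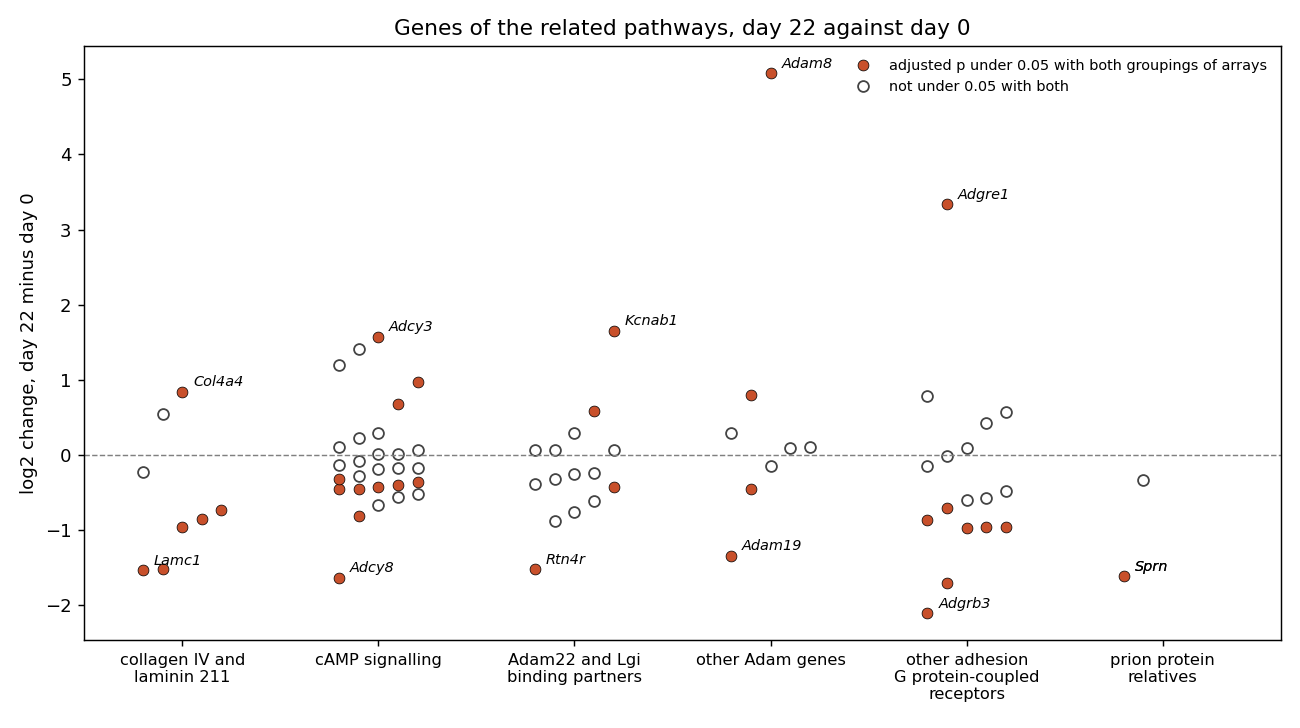
Log2 change at day 22 against day 0 (vertical axis) of each tested gene of the 6 related lists (horizontal axis); filled points have an adjusted p under 0.05 with both groupings of arrays, and the most extreme of these are named. Laminin and collagen IV chains lie mostly below 0, both prion protein relatives lie below 0, and the other lists spread to both sides.

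Genes whose levels ran most like those of each member over the 18 arrays were taken by Pearson's r from 14542 gene symbols, as a description with no test, since the arrays share days, slides and batches. Closest to Adgrg6 were Fign (r = 0.963), Mboat2 (0.96) and Plekha5 (0.96), each with its highest mean on day 0. Lgi2 ran most like Rab11fip5 (0.954), Cyp4b1 (0.948) and the transporter gene Abcg2 (0.946), whose means were highest on day 22. For Adam22 they were Rab6b (0.95), Elapor2 (0.944) and the sensory neuron sodium channel Scn10a (0.939). For Prnp they were Napepld (0.921), Rasgef1c (0.912) and Slc31a2 (0.908), and for Lgi3 they were Mapk8ip1 (0.910), Fgf18 (0.903) and Mgll (0.898). The closest genes of the others had lower coefficients: Adam23 with Itgb8 (0.849), Lgi4 with Endod1 (0.845), Adam11 with Zscan2 (0.840) and Lgi1 with Sytl4 (0.803).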

How the data were processed

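RNA of 18 explant samples was hybridised to 18 one-colour (Cy3) Agilent arrays on 3 slides, and intensities were extracted with Feature Extraction 10.7.1.1 on a design annotated to mm9, per the file headers (version 10.7.1 per the submitters' processing notes). The deposited gProcessedSignal intensity is background-subtracted by that software, per the file headers. The value table deposited by the authors holds linear intensity whose column medians are all 33.7, with its scaling not given in the sources used here.

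From the deposited intensity, log2 minus each array's 75th percentile was computed after leaving out control spots and outlier flags, and repeated spots were averaged per probe. Probes entered the fit where all 6 arrays of some day read them well above background (30431 of 55681), named through RefSeq (26582 probes matched 20145 symbols), and the brightest probe stood for a gene. The 2 arrays of each batch and day were averaged, and the 9 values were fitted with 3 days with limma 3.58.1 (lmFit, eBayes; R 4.3.3, with the data.table package at version 1.17.8) and Benjamini-Hochberg adjustment at 0.05. The fit was also run on simulated data with independent noise. That run had no shared batch or slide effect, so it could not show how such effects act on the calls. The number of arrays limits the precision, and no spot was saturated.

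Arrays were matched to value table columns by Spearman correlation (at least 0.9999 for the match, at most 0.975 otherwise): 6 columns hold their own file and 12 another of the same day. The series' design text says that replicate numbers mark batches of embryo pools, so they pair samples. The main fits, by either grouping, leave this pairing out, and only the fits with the batch as a block use it. Same-number deviations correlated across days at -0.13 to 0.37 (6 of 9 above 0.1), or -0.08 to 0.46 (8 of 9) by table batches. The consensus correlation of the 2 arrays in a batch was -0.02 by file batches and 0.36 by table batches. Arrays of 1 file batch were thus no more alike than arrays of different file batches, while those of 1 table batch were. Batch means had a smaller median SD by file batches, 0.149 against 0.178, and the file batches gave more calls in each comparison. Slide is a scan and hybridisation unit: slides 1 and 2 hold all days.

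The genes and lists were chosen with earlier results of these data known. All 9 genes are named, with the 3 most alike features each and up to 3 list members per direction past the threshold; Pou3f1, Egr2, Gnas and the remaining names were added after their values were seen. Alternatives were the batch as a block, the authors' values and table batches, normexp (offset 50, on median signals, the only raw foreground column of the files), quantile scaling, no filter, the mean of probes, either technical array, slide, and each batch left out. Promoters and gene names come from RefSeq tables of GRCm38.p6.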

Additional observations from a re-analysis of the deposited data

Results flagged for a closer look

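Of 39 sets of 6 arrays (13 probes on 3 days), 1 had an array that stood apart from the rest by more than Dixon's criterion allows, a number that chance would often give. It was the brighter Adam22 probe on day 0, where batch 1 array 2 read 0.72 on the log2 scale and the nearest of the other 5 arrays read 1.73, a gap of 0.748 of the whole range. The same array had the lowest neuron marker mean of its day (4.21).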

How the results depend on the processing

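Limits common to all results are 3 batches per day, a single probe for Adgrg6, Lgi2, Lgi3, Lgi4 and Prnp, and batch numbers that differ between the deposited sources for 12 arrays. No value of the 9 genes that passed the threshold reversed under any alternative; set against the alternatives, their values kept their side of the threshold in 593 cases, lost it in 40 and gained it in 15. The settings without 1 array and with the slide as a block by table batches were chosen after seeing the data.

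The features called were 2605 higher and 4078 lower for day 10 against day 0, 960 and 1241 for day 22 against day 10, and 3909 and 6246 for day 22 against day 0. The table batches gave 1347 and 1814, then 120 and 338, and with the replicate block as well 1698 and 2034, then 317 and 399. The authors' value table gave 1530 and 1575, then 96 and 336. For the 3 comparisons in turn, the first technical arrays gave 455 and 400, 24 and 63, and 1897 and 2528, and the second 1300 and 1918, 61 and 216, and 2510 and 3764. Slide 1 alone gave 606 and 351, 0 and 0, and 1676 and 1496, and slide 2 alone 220 and 176, 0 and 0, and 1241 and 1605. For day 22 against day 10, no filter on dim probes gave 478 and 674, and the slide as a block gave 2087 and 2990, or 347 and 719 by table batches. The slide as a block by table batches gave 2666 lower for day 10 against day 0, and leaving out batch 1 array 2 of day 0 gave 2343. Leaving out a batch of a day in turn gave 1725 to 3083 and 2622 to 4485, 263 to 1612 and 483 to 1883, and 3163 to 3997 and 4903 to 6279.

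Of the 9 genes, 1 was higher and 1 lower for day 10 against day 0. The higher count was 2 with the replicate block, normexp, quantile scaling and without batch 1 array 2 of day 0, 3 with the slide as a block, and 0 with the first technical arrays or either slide alone, as was the lower count. For day 22 against day 10 the 1 higher call became 0 with the replicate block, the table batches with and without the block or with the slide, the authors' value table, no filter on dim probes, either technical array and either slide, and 2 with the slide as a block. The lower count of 0 became 1 with the replicate block and 2 with the slide as a block. For day 22 against day 0 the higher count of 3 was 1 with the second technical arrays and on either slide, and the lower count of 1 was 2 without batch 1 array 2 of day 0. Leaving out a batch gave 1 to 2 higher and 0 to 1 lower, then 0 to 1 and 0 to 1, then 2 to 3 and 1 to 1. The cause of these differences was not tested. The technical array, slide and batch settings also use fewer arrays.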
